A study of Mus musculus with 6 samples.

Results

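Bulk RNA-Seq of circulating donor CD8+ T cells from the BM was examined for 10 integrin chains, the alpha chains Itga4, Itgal, Itgav, Itga6, Itga5 and Itga2 and the beta chains Itgb1, Itgb2, Itgb7 and Itgb3. They were chosen by gene symbol, and all 10 were found among the 14051 genes listed and passed the filter on low values that left 11649 genes to test. B6D2F1 recipients were irradiated and given purified CD3+ T cells of B6.CD45.1 donor mice. They were injected from day -1 to day 5 with water-soluble dexamethasone at 5 mg/kg/day (GC-treated, 3 libraries) or with methyl β-cyclodextrin in PBS (vehicle-treated, 3 libraries). On day 5 an i.v. anti-CD45 antibody marked the cells inside vessels, and marked CD45.1+CD8+ donor cells were sorted from BM pooled over several mice per group. The sources used here state neither the age of the mice nor whether each library had its own pool, so p-values measure the spread between these libraries only.

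Integrins are adhesion receptors made of 1 alpha and 1 beta chain, and a chain reaches the cell surface only with a partner. On T cells, VLA-4 (α4β1) binds VCAM-1 and fibronectin and holds cells in the BM, α4β7 binds MAdCAM-1 on gut endothelium, and LFA-1 (αLβ2) binds ICAM-1 and serves both arrest on endothelium and the synapse with target cells. A pair of chains can be limited by either partner, which is why each alpha chain was compared here with the beta chains it joins.

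Read totals over the listed genes lay between 60949593 and 76888118 per library. All libraries carried CD8+ T cell genes at high levels, with 12 of 13 listed markers in the table, led by Gzmb, the cytotoxic granule protease granzyme B, at normalized counts of 373959 to 735663. A normalized count is the number of reads of a gene divided by 1 size factor per library. When each library was left out in turn, the number of genes called changed only for GC-treated 1. With all libraries limma called 0 genes lower and 0 higher at an adjusted p under 0.05, and without GC-treated replicate 1 it called 43 lower and 2 higher (0.374% and 0.0174% of genes). Tsc22d3, a gene that glucocorticoids induce in many cells, was chosen after its values were seen. GC-treated 1 to 3 held normalized counts of 1521, 3267 and 4689, which overlapped the 2619, 4755 and 2994 of vehicle-treated 1 to 3. All directions are given by the labels.

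The stretches just before the transcript starts of the VLA-4 and LFA-1 chains are shown, since these are the 2 receptors the chains were grouped around. Each is the 250 bases before the canonical start in Gencode M39, 5′ to 3′ on the forward strand of GRCm39, and capitals mark a GC box (GGGCGG, either strand). The regions are chr2:79085410-79085659 for Itga4, chr8:129411626-129411875 for Itgb1, chr7:126895182-126895431 for Itgal and chr10:77365836-77366085 for Itgb2.
Itga4: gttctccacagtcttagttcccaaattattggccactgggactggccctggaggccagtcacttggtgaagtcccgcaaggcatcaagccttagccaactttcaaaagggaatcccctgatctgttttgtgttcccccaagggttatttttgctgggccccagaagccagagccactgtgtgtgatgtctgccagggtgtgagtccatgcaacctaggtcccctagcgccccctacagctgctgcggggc
Itgb1: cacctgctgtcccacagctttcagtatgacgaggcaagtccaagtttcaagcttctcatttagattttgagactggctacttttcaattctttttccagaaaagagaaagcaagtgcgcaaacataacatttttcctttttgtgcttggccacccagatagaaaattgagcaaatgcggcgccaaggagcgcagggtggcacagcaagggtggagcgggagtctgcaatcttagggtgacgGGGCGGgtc
Itgal: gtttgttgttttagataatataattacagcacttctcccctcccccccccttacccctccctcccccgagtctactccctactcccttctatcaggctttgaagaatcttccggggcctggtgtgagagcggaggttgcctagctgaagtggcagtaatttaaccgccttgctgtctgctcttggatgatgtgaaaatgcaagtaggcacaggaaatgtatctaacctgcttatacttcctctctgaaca
Itgb2: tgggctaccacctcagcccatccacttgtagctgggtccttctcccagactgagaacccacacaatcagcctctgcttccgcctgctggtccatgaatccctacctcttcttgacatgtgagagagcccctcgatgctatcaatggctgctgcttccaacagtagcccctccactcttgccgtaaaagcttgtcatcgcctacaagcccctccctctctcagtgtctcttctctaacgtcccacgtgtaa
Of these, Itgb1 alone held a GC box, 9 bases before its start. Over all 10 chains, 4 promoters held one (Itgb1, Itgb3, Itga5 and Itga6), against 36.3% of 21756 protein-coding promoters of that length. The half-site AGAACA of the glucocorticoid receptor, searched on both strands, was found before Itga2 and Itgb7 and before 14.3% of all promoters. The full palindromic element, that half-site and its reverse complement with 3 bases between them, was found in 0 of the 21756. With 0 matches anywhere, that search could not set the 10 chains apart from other genes. The ETS letters CCGGAAGT and the RUNX letters TGTGGT were before none of the 10 chains, against 2.64% and 13% of all. A match of letters is a description and says nothing about binding.

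Itga4, the alpha chain of VLA-4 and of α4β7, was the chain that varied most between libraries among those with over 1000 counts. The gene spans bases 79085660 to 79163467 of chromosome 2 (GRCm39, forward strand). GC-treated 1 to 3 held normalized counts of 23137, 16090 and 8796, and vehicle-treated 1 to 3 held 24793, 29933 and 17729. GC-treated 3 was the lowest of all libraries and vehicle-treated 2 the highest, 3.40 times as high, and GC-treated 1 lay above vehicle-treated 3, so the groups overlapped. The log2 fold change was -0.67 (95% interval -1.38 to 0.05, adjusted p = 0.62 from limma), and it was -0.29 without GC-treated replicate 3 and -0.99 without GC-treated replicate 1. The spread of Itga4 within the groups, an SD of 0.57 on the log2 scale, was larger than that of 99.5% of genes with a mean count of at least 1000. Exons of Cerkl on the other strand cover 20.8% of the exon length of Itga4, and reads from the 2 strands cannot be told apart with this kit. Whether reads in that stretch were counted for Itga4, for Cerkl or dropped was not tested, and the level of Itga4 per length of exon depends on it. Smaller stretches of Itgav (5.1%), Itga2 (6.2%) and Itga6 (0.4%) overlap other genes.

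Itgb1, the β1 chain that joins α4 in VLA-4 and is the shared partner of many alpha chains, spans bases 129411876 to 129460618 of chromosome 8. Its normalized counts in GC-treated 1 to 3 were 79259, 59316 and 57962, beside 70951, 95196 and 64276 for vehicle-treated 1 to 3. Vehicle-treated 2 was again the highest library and GC-treated 3 the lowest, but GC-treated 1 came second of all, above 2 of the vehicle-treated libraries. Its log2 fold change was -0.22 (95% interval -0.59 to 0.15, adjusted p = 0.65 from limma), and without vehicle-treated replicate 2 it was -0.059.

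Itgb7, the β7 chain of the gut-homing receptor α4β7 and of αEβ7, spans bases 102124429 to 102140379 of chromosome 15, reverse strand. GC-treated 1 to 3 stood at 63290, 71633 and 65413 normalized counts and vehicle-treated 1 to 3 at 68551, 77548 and 73427. The libraries lay close together, with the highest 1.23 times the lowest, and only GC-treated 2 lay above a vehicle-treated library. The log2 fold change was -0.13 (95% interval -0.32 to 0.06, adjusted p = 0.63 from limma). That interval allows a level at most 1.04 times as high and at least 0.800 times as high with GC treatment.

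LFA-1's alpha chain Itgal spans bases 126895432 to 126934320 of chromosome 7. GC-treated 1 to 3 held 73105, 82412 and 69215 normalized counts of it, beside 84185, 72189 and 87070 for vehicle-treated 1 to 3. Vehicle-treated 2, the library with the most Itga4 and Itgb1, was among the lowest for Itgal. Its partner Itgb2, the β2 chain that all leukocyte β2 integrins share, spans bases 77366086 to 77401542 of chromosome 10. GC-treated 1 to 3 held 77349, 86157 and 84514 normalized counts, beside 84225, 74492 and 85169 for vehicle-treated 1 to 3. Vehicle-treated 2 was the lowest library for Itgb2, and the highest was 1.16 times as high, the narrowest range of the 10 chains. The log2 fold changes were -0.11 for Itgal (95% interval -0.34 to 0.11) and 0.03 for Itgb2 (95% interval -0.17 to 0.22), with adjusted p of 0.70 and 0.93 from limma. In folds, the Itgb2 interval runs from 0.890 to 1.16.

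**Figure D1:**
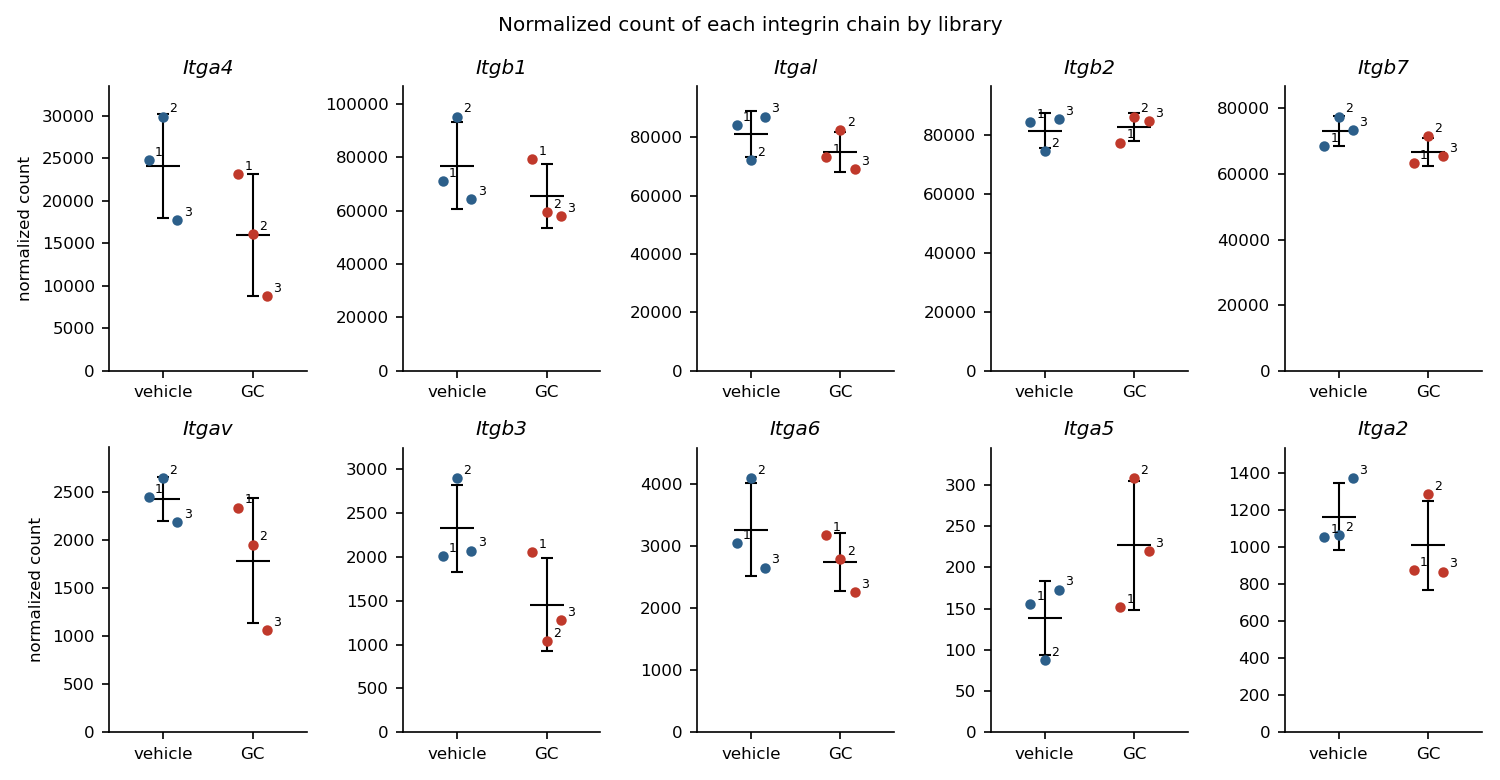
Normalized count of each integrin chain (vertical axis, from 0) in the vehicle-treated and GC-treated libraries. Points are libraries with their replicate number, and bars give mean and SD (3 libraries each). The groups overlap for every chain, and GC-treated 3 is the lowest library for Itga4 (8796) and Itgav (1069).

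The vitronectin receptor αvβ3 is carried by activated T cells at low levels and by many other cells. Its alpha chain Itgav, which also joins β1, spans bases 83554403 to 83637260 of chromosome 2. Itgav stood at 2342, 1956 and 1069 for GC-treated 1 to 3, beside 2451, 2650 and 2191 for vehicle-treated 1 to 3, the same order of libraries as Itga4. Its beta chain Itgb3, at bases 104498826 to 104561302 of chromosome 11, stood at 2049, 1036 and 1278 for GC-treated 1 to 3, beside 2005, 2896 and 2070 for vehicle-treated 1 to 3. GC-treated 2 and 3 lay below all vehicle-treated libraries, and GC-treated 1 lay just above vehicle-treated 1. Itgb3 had the lowest p of the 10 chains, with a log2 fold change of -0.72 (95% interval -1.27 to -0.16, unadjusted p = 0.017, adjusted p = 0.62 from limma). Without GC-treated replicate 1 it was -0.99 (adjusted p = 0.066 from limma). Itgav had -0.51 (95% interval -1.09 to 0.06, adjusted p = 0.62 from limma), and without GC-treated replicate 3 it was -0.18.

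Itgb3 also pairs with the platelet chain Itga2b, so platelet and megakaryocyte genes were read beside it. Of 14 such genes 8 were in the table. Their summed normalized count was 19.0 to 64.3 in the GC-treated libraries and 28.4 to 220 in the vehicle-treated ones. Itga2b was at 0 in GC-treated 1 and at most 35.7 in the others, and the defining genes Pf4, Gp6 and Clec1b were not among the genes listed. Trac, of the CD8+ T cell list, was not listed either in these sorted T cells. A gene missing from the list therefore need not lack RNA. Itgb3 itself was at 1036 or more in every library, and the part of platelets in it was not tested.

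The other partners of β1 bind matrix proteins. Itga6, a laminin-binding chain at bases 71575960 to 71689757 of chromosome 2, stood at 3183, 2792 and 2253 for GC-treated 1 to 3, beside 3043, 4096 and 2653 for vehicle-treated 1 to 3. Itga2, a collagen-binding chain at bases 114969617 to 115068636 of chromosome 13, stood at 874, 1284 and 867 for GC-treated 1 to 3, beside 1055, 1065 and 1372 for vehicle-treated 1 to 3. For neither did the groups separate, and their log2 fold changes were -0.24 (95% interval -0.65 to 0.17) and -0.22 (95% interval -0.65 to 0.20). Itga5, the fibronectin-binding chain of VLA-5 at bases 103252713 to 103275270 of chromosome 15, stood at 152, 308 and 220 for GC-treated 1 to 3, beside 155, 87.6 and 173 for vehicle-treated 1 to 3. Its log2 fold change was positive, unlike those of Itga4, Itgav, Itga6 and Itga2. GC-treated 2 and 3 lay above every vehicle-treated library, while GC-treated 1 lay below 2 of them. The log2 fold change of Itga5 was 0.71 (95% interval -0.09 to 1.51, adjusted p = 0.62 from limma).

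Between the labelled groups, 0 of the 10 chains passed at an adjusted p under 0.05 in limma, edgeR or DESeq2, where limma and edgeR called 0% of all tested genes and DESeq2 called 0.0143%, all lower. At an unadjusted p under 0.05 each of the 3 tools had 1 chain lower, Itgb3, and 0 higher. The background at that p was 5.07% lower and 2.12% higher in limma (7.19% in all), 3.79% and 2.28% in edgeR and 4.63% and 2.41% in DESeq2. Without GC-treated replicate 1, limma had 4 chains lower at an unadjusted p under 0.05, Itga4, Itgb1, Itgav and Itgb3, and 1 higher, Itga5, where the background was 12.3% lower and 8.40% higher, and 0 chains passed after adjustment. Of the log2 fold changes 8 were negative, with a median of -0.222, against 51.5% negative and a median of -0.008 over all tested genes. For 0 of the 10 did the groups fail to overlap, where they did so for 12.8% of tested genes, 6.40% lower and 6.40% higher. In bulk samples, fewer cells that carry a chain and less of its RNA per cell cannot be told apart.

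**Figure D2:**
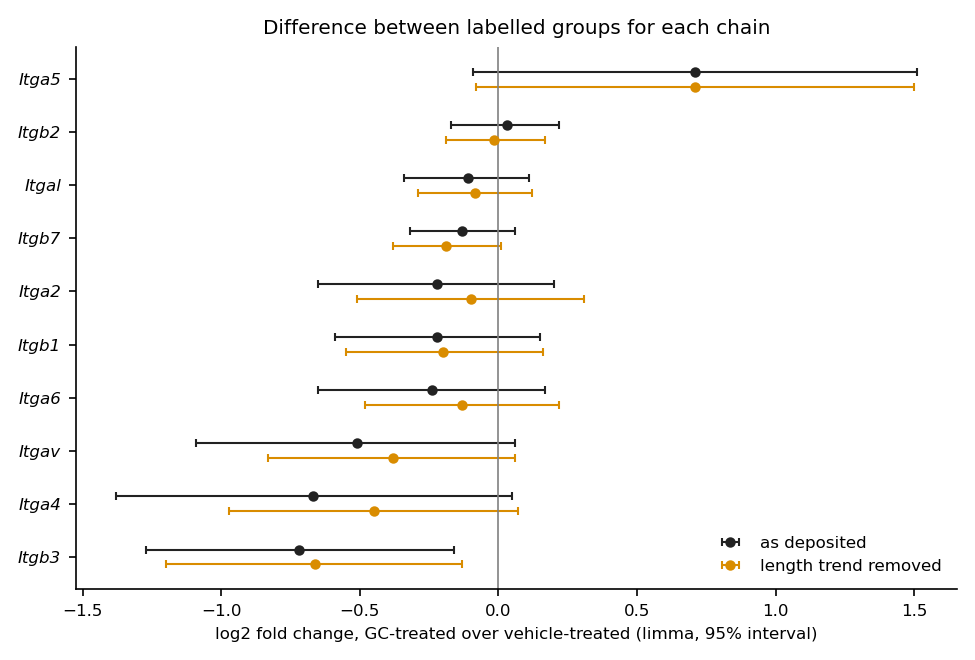
Log2 fold change of each chain, GC-treated over vehicle-treated, with the 95% interval from limma. Black points are from the deposited values and orange points are after the trend with transcript length was removed in each library. All intervals but that of Itgb3 (-1.27 to -0.16 as deposited) include 0.

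Levels of different chains were compared per kilobase (kb) of exon. Itgb2 and Itgb7 were highest, with means over the 6 libraries of 25273 and 24113 normalized counts per kb, and they did not differ beyond their spread, since Itgb2 lay above Itgb7 in 5 of 6 libraries and their ranges overlapped. Itgb1 at 11920 and Itgal at 11860 came next and traded places, with Itgb1 higher in 2 of 6 libraries. Itga4 followed at 1200, below Itgal by at least 6.13 times in every library. Itgb3 at 286, Itga6 at 264, Itgav at 171 and Itga2 at 152 had ranges that overlapped their neighbours', though Itga6 lay above Itgav in 6 of 6 libraries, and Itga5 was last at 34.3, below Itga2 in 6 of 6 libraries. These values depend on the gene model. With the longest transcript in place of all annotated exons, Itga4 stood at 2018 and the order changed among Itgal and Itgb1 and among Itga6 and Itgb3.

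**Figure D3:**
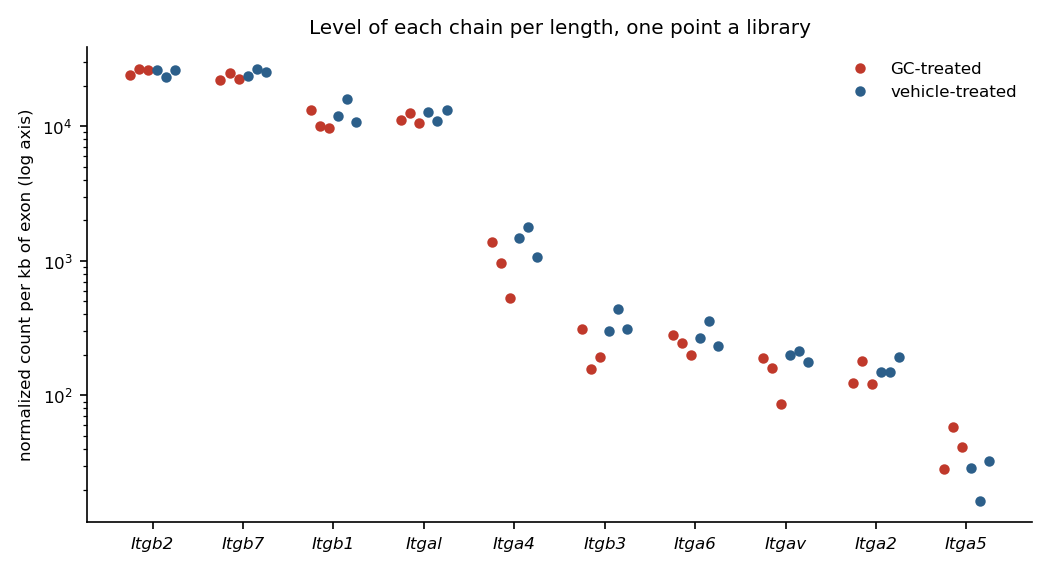
Normalized count per kb of exon (log axis) of each chain, with 1 point per library, in red for GC-treated and blue for vehicle-treated. Itgb2, Itgb7, Itgb1 and Itgal lie at 9709 or above in every library, Itga4 has a mean of 1200 and the others are at 438 or below.

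In the 8 pairs compared, alpha chains were at lower levels per kb than their beta chains, with the exception of Itgav, which was above Itgb3 in GC-treated 2. Beta chains outside these pairs were lower still, with means per kb of 19.5 for Itgb5 and 0.346 for Itgb8, which join Itgav, and 3.03 for Itgb4, which joins Itga6. The per-kb ratio of Itga4 to Itgb1 stood at 0.104, 0.0968 and 0.0541 for GC-treated 1 to 3, beside 0.125, 0.112 and 0.0984 for vehicle-treated 1 to 3. That of Itga4 to Itgb7 was 0.0634, 0.0390 and 0.0233 against 0.0627, 0.0669 and 0.0419 in the same order. For LFA-1 the chains were nearer to each other, with Itgal to Itgb2 at 0.466, 0.472 and 0.404 against 0.493, 0.478 and 0.504. The ratio of Itgav to Itgb3 stood at 0.613, 1.01 and 0.448 for GC-treated 1 to 3, beside 0.656, 0.491 and 0.568 for vehicle-treated 1 to 3. Itga6, Itga2 and Itga5 were each under 0.03 of Itgb1 in every library.

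Summing the alpha chains that β1 can join, 11 of 12 of which were in the table, gave a per-kb ratio to Itgb1 of 0.154 ± 0.0358 (SD, n = 3) in GC-treated and 0.185 ± 0.0139 (SD, n = 3) in vehicle-treated libraries. Itga4 made up 47.5% to 64.3% of that sum and Itga6 11.2% to 17.9%. For β2 the sum of its 4 alpha chains stood at 0.515 ± 0.0534 (SD, n = 3) and 0.562 ± 0.0223 (SD, n = 3) of Itgb2. Itgal gave 85.4% to 89.1% of it, and Itgax, an alpha chain of myeloid cells that activated CD8+ T cells also carry, gave 10.2% to 13.8%. For β7 the sum of Itga4 and Itgae was 0.0443 ± 0.0198 (SD, n = 3) and 0.0592 ± 0.0119 (SD, n = 3) of Itgb7, with Itgae, the αE chain, at 1.47% to 8.93% of the sum. These are mRNA levels and were not compared with protein.

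How the ratio moved between the groups was tested for 8 pairs, on the log2 ratio of the normalized counts, by an exact two-sided permutation test that cannot give a p under 0.1 with 3 against 3 libraries. Itgal/Itgb2 reached that p. Its log2 ratio was -0.08, -0.06 and -0.29 for GC-treated 1 to 3, beside 0.00, -0.05 and 0.03 for vehicle-treated 1 to 3, so every GC-treated library lay below every vehicle-treated one, though GC-treated 2 and vehicle-treated 2 nearly met. The difference was -0.14 (exact permutation p = 0.10, adjusted p = 0.60 over the 8 pairs). The ratio to Itgb2 was lower without overlap for 3.55% of the other tested genes. That share counts the lower direction and this beta chain only, while 8 pairs were tested two-sided. Normalized counts of single genes did not overlap in either direction for 12.8% of tested genes. For Itga4/Itgb1 the difference was -0.44 (exact permutation p = 0.20) and for Itga4/Itgb7 it was -0.54 (exact permutation p = 0.30), each with overlapping groups. Itga6/Itgb1 at -0.02 and Itga2/Itgb1 at 0.00 had the smallest differences, with 95% intervals from limma of -0.38 to 0.34 and -0.84 to 0.85. Itgav/Itgb1 was at -0.29, Itgav/Itgb3 at 0.20 and Itga5/Itgb1 at 0.93, with exact permutation p of 0.50, 0.80 and 0.30 and adjusted p from 0.60 to 0.90.

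**Figure D4:**
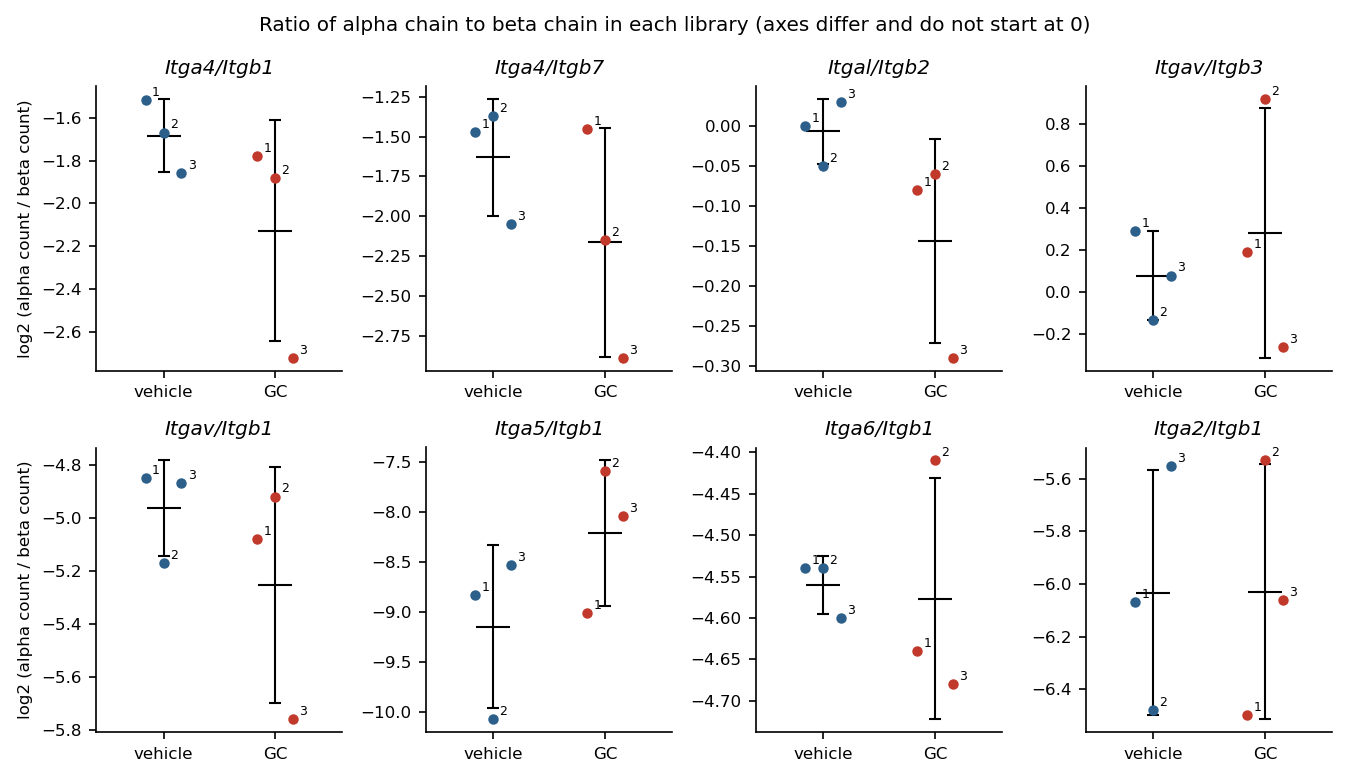
Log2 ratio of the normalized counts of alpha and beta chain in each library, for 8 pairs. Points are libraries with their replicate number, bars give mean and SD (3 libraries each), and each panel has its own axis. Itgal/Itgb2 is the pair whose groups do not overlap, and GC-treated 3 is the lowest library in 6 of the 8 panels.

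Within a pair, the alpha chain often spread more over the libraries than its beta chain. Itga4 ranged over 1.77 log2 units, Itgb1 over 0.72 and Itgb7 over 0.29. Itgal and Itgb2 ranged over 0.33 and 0.21, and Itgav and Itgb3 over 1.31 and 1.48. Profiles were compared by the root mean square difference of the centred log2 values over the 6 libraries, among genes with a mean count of at least 1000. By that measure Itgb1 was the gene ranked 603 of 7205 in likeness to Itga4, at 0.39, while Itgav was ranked 27, at 0.18. Nearest to Itgb1 among the chains was Itga6, ranked 16 at 0.09. Itgb2 was ranked 584 in likeness to Itgal, and Itgal 1703 in likeness to Itgb2.

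The 3 genes most like Itga4 were Plec, Utrn and Ahnak, at differences of 0.07, 0.08 and 0.10. All encode very large proteins of the cytoskeleton or cell cortex, and their longest transcripts are 15.46, 13.54 and 18.44 kb long. Those most like Itgb1 were Brca2, Wdr90 and Dusp4, and the nearest to Itgal and Itgb2 were Efcab14, Lamp2 and Tmem168, and Rnpc3, Cr1l and Irf2bp1. Because the genes nearest to Itga4 have long transcripts, levels were then read by transcript length over all 11404 tested genes with an annotated length.

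Genes with longer transcripts were lower in GC-treated 3 and less so in GC-treated 2. For the 364 genes of 10 kb and over, the median log2 deviation from the mean of the 6 libraries was 0.130, -0.054 and -0.497 for GC-treated 1 to 3, beside 0.187, 0.198 and 0.086 for vehicle-treated 1 to 3. For the 1259 genes under 2 kb it was -0.026 in GC-treated 1 and 0.011 in GC-treated 2, GC-treated 3 was the highest library, and vehicle-treated 1 to 3 were at -0.028, -0.025 and -0.072. The median log2 fold change went from 0.102 under 2 kb through -0.022 at 4 to 6 kb to -0.175 at 8 to 10 kb and -0.321 at 10 kb and over, and 19.2% of the longest genes were lower at an unadjusted p under 0.05 against 1.75% of the shortest. Itga4, at 9.95 kb, has the longest transcript of the 10 chains, followed by Itgav at 7.39 kb, Itga2 at 7.11 kb and Itga6 at 6.94 kb. Itgb2 at 3.12 kb and Itgb7 at 2.79 kb have the shortest.

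With the trend removed in each library, an alternative chosen after seeing the data, Itga4 had a log2 fold change of -0.45 (95% interval -0.97 to 0.07, adjusted p = 0.64 from limma) and Itgav of -0.38. Itgb3, at 5.81 kb, was at -0.66, Itga5 at 0.71 and Itgb1 at -0.20, while Itga6 came to -0.13, Itga2 to -0.10, Itgal to -0.083 and Itgb2 to -0.014. Itgb7, with the shortest transcript, moved away from 0, from -0.13 to -0.19 (95% interval -0.38 to 0.01, adjusted p = 0.64 from limma). The Itgal/Itgb2 difference became -0.07 and its groups overlapped (exact permutation p = 0.20). Itga4/Itgb1 came to -0.26 and Itga4/Itgb7 to -0.27. RNA integrity was measured for each sample per the labels, but its values were not used here, and the part of RNA quality in these differences was not tested.

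**Figure D5:**
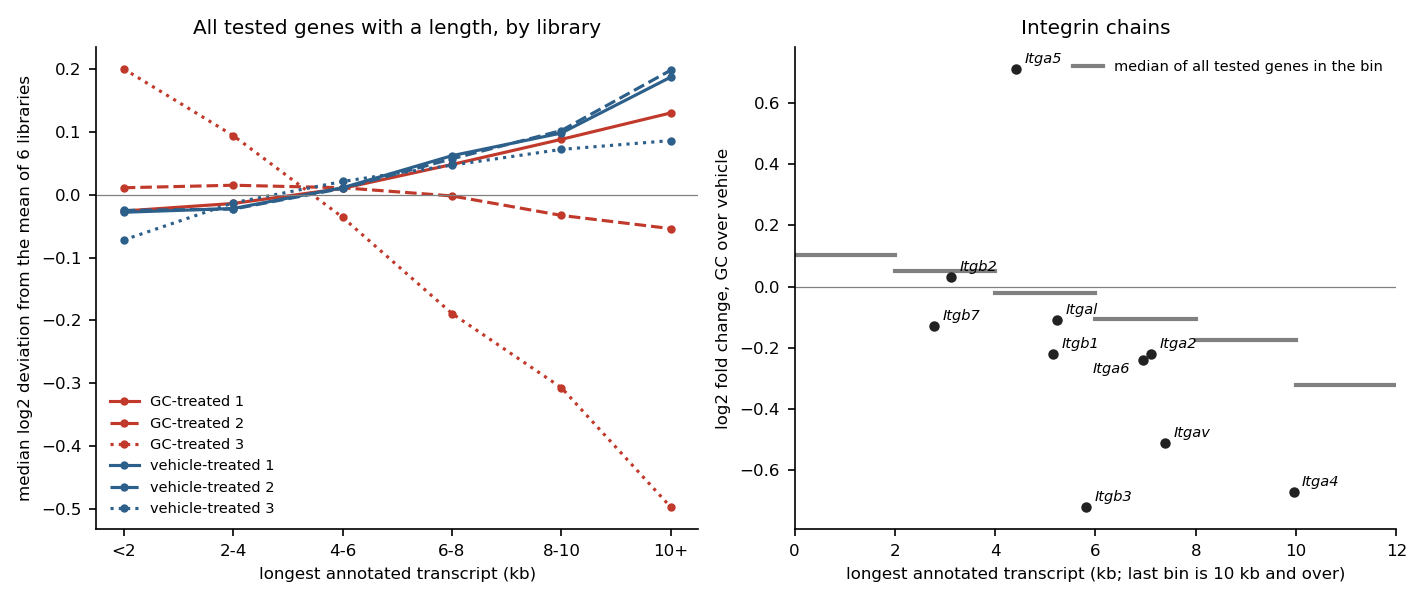
Left, median log2 deviation of tested genes from the mean of the 6 libraries (vertical) by longest annotated transcript (horizontal, kb), with 1 line per library. Right, log2 fold change of each chain against its transcript length, with grey bars for the median of all tested genes in the same length bin. GC-treated 3 goes from the highest library in the shortest bin to -0.497 in the longest, and 9 of the 10 chains lie below the median of their bin, all but Itga5.

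Of the 16 other integrin chains, 14 were in the table and 11 were tested, and 0 passed in either direction. Their median log2 fold change was -0.457, with 8 negative, against a median of -0.008 and 51.5% negative over all tested genes. Low genes such as Itga2b, Itgb4 and Itga7 are among the 11, and the median rests partly on them. Itga1, a collagen-binding chain, stood at 2888, 3558 and 2384 for GC-treated 1 to 3, beside 4223, 3913 and 3923 for vehicle-treated 1 to 3, so its groups did not overlap. It had a log2 fold change of -0.47 (unadjusted p = 0.0096, adjusted p = 0.62 from limma) and a longest transcript of 11144 bases. Itga7 and Itga3, both laminin-binding chains, had -2.48 and -0.62. Itga7 was low, at 13.9, 21.8 and 0 for GC-treated 1 to 3, beside 45.8, 80.0 and 14.6 for vehicle-treated 1 to 3, so its fold change depends on the value added before the log. Itgax was the highest of these chains per kb, at 1653, with a log2 fold change of -0.04, and Itgad, another β2 partner, stood at 64.8 per kb with 0.28.

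Integrins are switched on from inside the cell, when talin and kindlin bind the beta tail, and filamin competes with them. Of 31 genes of activation and linkage to the cytoskeleton, 26 were tested, and 0 passed. Their median log2 fold change was -0.060, against -0.008 over all tested genes. Talin 1 (Tln1) stood at 71511, 56854 and 42565 for GC-treated 1 to 3, beside 79173, 71691 and 77405 for vehicle-treated 1 to 3, a log2 fold change of -0.45 (adjusted p = 0.62 from limma). Filamin A (Flna) was at 129074, 105296 and 74129 and at 141869, 140619 and 134624, with -0.47. For both, GC-treated 3 was the lowest library and the groups did not overlap, and their longest transcripts are 8405 and 10230 bases. The kinase Ptk2, a low gene, had -1.12. For 5 of the 26 genes the groups did not overlap, 4 of them lower, against 12.8% of all tested genes, 6.40% lower and 6.40% higher.

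Of 20 ligands, most of them made by other cells, 13 were tested and 0 passed. Their median log2 fold change was -0.194, against -0.008 over all tested genes. Spp1, osteopontin, a ligand of αvβ3 and α4β1 that activated T cells also make, stood at 482, 693 and 1759 for GC-treated 1 to 3, beside 420, 322 and 287 for vehicle-treated 1 to 3. Its log2 fold change was 1.30 (unadjusted p = 0.011, adjusted p = 0.62 from limma), and GC-treated 3 was the highest library. Every GC-treated library lay above every vehicle-treated one, as for 6.40% of all tested genes. Vcam1, the VLA-4 ligand of BM stroma and endothelium, was at 415, 478 and 563 and at 540, 706 and 1019, with -0.60. The laminin chain Lamc1 had -0.37. Of 10 stroma and endothelium genes, Vcam1 among them, the summed count was 3003 to 4424 in GC-treated and 3501 to 4167 in vehicle-treated libraries, led by Pecam1 at 2505 to 3118, and Cdh5, Kdr, Emcn, Lepr and Col1a2 were at 0 in at least 1 library. GC-treated 3, the library with most Spp1, also had the most Cxcl12, at 721 against at most 58.4 in the others, and the most Col1a2 and Lepr, at 183 and 68.0. Of the rest of that list, Kdr, Col1a1 and Kitl were also highest in GC-treated 3. Pecam1, Cdh5, Emcn and Vcam1 were highest in other libraries. The part of stromal RNA in the ligand values was not tested.

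Other cell types that carry these chains were read from their markers. Neutrophil genes, 9 of 13 in the table and led by Ltf, summed to 1830 to 12622 in GC-treated and 455 to 4218 in vehicle-treated libraries, with GC-treated 2 and 3 the highest. Ltf was at 0 in vehicle-treated 1. Monocyte and macrophage genes, 13 of 15 and led by Itgax, summed to 8915 to 11273 and 9068 to 12956. Most of that sum was Itgax, at 5941 to 9820 over the libraries, which activated CD8+ T cells also carry. Genes of the CD4 T cell list, 8 of 8 and led by Icos, summed to 11625 to 12212 and 12465 to 15315, so the groups did not overlap. Icos and Ctla4 held most of that sum. Taken singly, Cd40lg and Tnfsf8 were lower in GC-treated libraries without overlap, as were 6.40% of all tested genes (12.8% in either direction). For the other genes of the list the groups overlapped, among them Cd4 itself, at 86.3 to 164 in GC-treated and 97.1 to 178 in vehicle-treated libraries. All 8 genes had a negative log2 fold change, against 51.5% of tested genes. NK cell genes, led by Eomes, summed to 5133 to 5924 and 4761 to 5958, and B cell genes, led by Cd79b, to 1262 to 1786 and 1285 to 1715. Erythroid genes, led by Hba-a1, summed to 442 to 624 and 625 to 952, where GC-treated 2 and vehicle-treated 3 all but met. How often summed lists fail to overlap was not computed. Itgb7, Itgal and Itgb2 stood at 63290, 69215 and 74492 or more in every library. The part of other cells was not tested for any chain, neither for these nor for Itga4, Itgb1 and the lower chains Itgav, Itgb3, Itga6, Itga5 and Itga2.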

How the data were processed

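Bulk RNA-Seq counts of 6 libraries were used. Per the methods and the labels, the authors aligned reads with STAR to GRCm39 with a Gencode annotation, counted them per gene with summarizeOverlaps and used DESeq2. The deposited table gives a normalized signal for 14051 genes, that is, counts over 1 size factor per library. Dividing each column by its step gave whole reads for 100% of values (tolerance 0.001 of a read), though for GC-treated 2 the step is too near 1 for an automatic test. The kit does not mark strand.

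The members, lists and tests were chosen with earlier results of these data known. The main test was limma 3.58.1 with a trend of variance on level, applied to log2(value + 1) for the genes that reached 10 in 3 or more libraries. P-values were adjusted by Benjamini-Hochberg and called under 0.05. Fold changes are on that scale, where those of low genes, and of genes at 0 in a library, can be smaller or larger than the ratio of the group means. On the recovered reads edgeR 4.0.16 and DESeq2 1.42.0 were run in R 4.3.3 as alternatives, where edgeR called 0 genes and DESeq2 called 2 lower. Scripts were tested on simulated data.

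Exon lengths, transcript lengths and coordinates came from Gencode M39 on GRCm39, which holds 13727 of the symbols. The length trend was a lowess fit with a span of 0.3 (statsmodels 0.14.6) on the 97.9% of tested genes with a length. Named genes were the 10 chains, the 3 lowest p of each other list, the 3 highest other chains per kb, the 3 genes nearest in profile and the highest gene of each marker list. Tsc22d3, Cxcl12, Col1a1, Col1a2, Lepr, Kitl, Cd4, Ctla4, Cd40lg, Tnfsf8, Itga2b, Itgb4, Itgb5 and Itgb8 fall outside it and were picked once their values were known. So do the marker genes given at 0 or as not listed. The labels give no batch. Counting error is small at this depth, so the number of libraries limits the precision.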

Additional observations from a re-analysis of the deposited data

How the results depend on the processing

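Leaving out each library in turn gave 0 to 43 genes lower and 0 to 2 higher over all genes, where DESeq2 called 2 lower and limma without the trend 1, and the chains called stayed at 0 under every setting run. The log2 fold changes ran from -0.99 to -0.29 (Itga4, lowest without GC-treated replicate 1 and highest without GC-treated replicate 3), from -0.37 to -0.059 (Itgb1), from -0.20 to -0.059 for Itgal, -0.18 to -0.089 for Itgb7, -0.74 to -0.18 for Itgav, -0.99 to -0.50 for Itgb3, -0.38 to -0.065 for Itga6, 0.41 to 0.96 for Itga5 and -0.41 to -0.097 for Itga2 when each library was left out. Itgb2 ran from -0.036 to 0.073, turning negative without GC-treated replicate 2 (-0.005), without vehicle-treated replicate 2 (-0.036) and with the length trend removed (-0.014). The lowest adjusted p of any chain was 0.066, for Itgb3 without GC-treated replicate 1. The other 10 settings kept the sign of the chains in 99 of 100 values, with Itgb2 as the exception. The cause was not tested.

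The pair differences ran from -0.62 to -0.15 for Itga4/Itgb1, -0.89 to -0.17 for Itga4/Itgb7, -0.18 to -0.068 for Itgal/Itgb2, -0.45 to -0.036 for Itgav/Itgb1 (highest without GC-treated replicate 3) and 0.47 to 1.33 for Itga5/Itgb1 (lowest without vehicle-treated replicate 2, highest without GC-treated replicate 1). They crossed 0 for Itgav/Itgb3 (-0.11 to 0.47, with -0.11 without GC-treated replicate 2), for Itga6/Itgb1 (-0.10 to 0.037, with 0.013 and 0.037 without GC-treated replicate 1 and 3, and 0.065 with the length trend removed) and for Itga2/Itgb1 (-0.25 to 0.25, with -0.25, -0.015 and -0.22 without GC-treated replicate 2 and vehicle-treated replicate 1 and 2). With the longest transcript as length, the summed alpha chains stood at 0.237 of Itgb1, 0.647 of Itgb2 and 0.0825 of Itgb7, against 0.169, 0.539 and 0.0518. The replicate block gave 0 genes higher and 0 lower and changed no call. Libraries sharing a number deviated from their group means with correlations of 0.06, -0.14 and 0.13. These cannot decide whether the numbers pair the samples, since all other differences between libraries enter them too. The sources used here do not state a pairing.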
